A study of Mus musculus with 8 samples.

Results

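Glutathione is the main small thiol of animal cells, and the enzymes described here supply, build, recycle, use and break it down. The set holds 10 mouse genes, given by symbol: Cth and Cbs for transsulfuration, Gclc, Gclm and Gss for synthesis, Gsr for recycling, Gpx4 for its use against lipid peroxides, and Chac1, Chac2 and Ggct for breakdown. All 10 were found once each among the 52778 features of the deposited expression table. RNA was taken from the ventricles of embryonic day 11.5 mouse hearts, in 4 control and 4 mutant libraries. The controls are labelled C57BL/6 WT. The mutants are homozygous for an Atf4 allele that lacks 7 bases of exon 3 after CRISPR/Cas9 editing, a germline frameshift. The genotype field of the mutants also reads C57BL/6 WT, so the groups were taken from the sample titles, and no drug or other agent was given to either group. All 8 samples carry the batch label 1, and the labels do not say whether the controls were littermates of the mutants.

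In transsulfuration, cystathionine beta-synthase (Cbs) joins homocysteine from methionine to serine, and cystathionine gamma-lyase (Cth) splits the product to give cysteine. Glutamate-cysteine ligase, made of a catalytic subunit (Gclc) and a modifier subunit (Gclm), then joins cysteine to glutamate, and glutathione synthetase (Gss) adds glycine. ATF4, a transcription factor of the amino acid response, is known to drive Cth, Chac1 and the cystine carrier gene Slc7a11 in stressed cells. NRF2, a transcription factor of the oxidant response, is known to drive Gclc and Gclm. The design asks which of these genes differ in embryonic heart when Atf4 carries this frameshift. ATF4 protein was not measured here.

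The promoters of these genes are shown because the members differ in which of these factors' sequence motifs they hold. RefSeq entries on GRCm38.p6 were found for 7 of the 10 members, and the 250 bases before the transcription start were searched on both strands. Cth, Gclc and Gsr had no entry and were not searched. TGATGNAA, the core of the element bound by C/EBP and ATF factors, occurred in 3.45% of all 32851 promoters of that length. TGACNNNGC, the antioxidant element core, occurred in 10.2% of them, and its variant TGAGNNNGC in 14.4%. Of the members with an entry, Chac1 alone held the first motif, and Gclm and Ggct each held the second. No match was found for any of the 3 motifs in the windows of Cbs, Chac2, Gss or the 4 Gpx4 entries. The 3 windows with a match follow, 5′ to 3′ on the strand of the gene, with the motif in capitals, on its reverse complement in each case.
Chac1: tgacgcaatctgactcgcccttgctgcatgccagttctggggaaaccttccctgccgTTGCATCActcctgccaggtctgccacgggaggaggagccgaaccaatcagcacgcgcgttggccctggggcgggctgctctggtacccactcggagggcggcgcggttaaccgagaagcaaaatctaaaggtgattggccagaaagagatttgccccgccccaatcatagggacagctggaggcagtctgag
Gclm: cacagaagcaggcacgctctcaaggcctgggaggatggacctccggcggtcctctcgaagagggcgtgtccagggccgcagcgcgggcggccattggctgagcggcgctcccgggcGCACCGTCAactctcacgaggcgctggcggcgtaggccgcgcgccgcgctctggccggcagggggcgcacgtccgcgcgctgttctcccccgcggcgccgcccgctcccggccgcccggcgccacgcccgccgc
Ggct: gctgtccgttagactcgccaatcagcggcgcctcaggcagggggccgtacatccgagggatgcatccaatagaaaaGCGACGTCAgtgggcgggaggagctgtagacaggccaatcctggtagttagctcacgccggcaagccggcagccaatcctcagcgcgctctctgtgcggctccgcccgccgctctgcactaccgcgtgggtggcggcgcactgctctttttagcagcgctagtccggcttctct
The Chac1 window is chr2:119350992-119351241 on the plus strand, and its match lies between bases -193 and -186 from the start. The Gclm window is chr3:122245307-122245556 on the plus strand, with the match between -134 and -126. The Ggct window is chr6:54992868-54993117 on the minus strand, with the match between -174 and -166. Positions count from the start in the RefSeq entry. For Gclm and Ggct that start lies inside the gene as listed with its TPM below, so part of each window overlaps the listed gene. A match describes the letters of the window and does not show binding.

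Expression is given as TPM, a relative transcript abundance that corrects for the length of a transcript, so levels of different genes can be set side by side. TPM keeps no read depth, and errors here are the spread between replicate libraries. Ventricular cardiomyocyte markers summed to between 37480 and 40360 TPM per library, and each of the 10 was above 1 TPM in every library. The protocol attached to the samples names cortical neurons, and the 10 neuronal markers summed to between 9.25 and 14.6 TPM per library. Of these, Tubb3 was read at 7.06 to 11.8 TPM and Stmn2 at 1.06 to 1.76 TPM, the other 8 were under 1 TPM in every library, and Neurod2 and Neurod6 were listed at 0 in all 8 libraries. Atf4 itself, the targeted gene, was read at 105 to 121 TPM in the controls against 148 to 185 TPM in mutants, without overlap. Its log2 fold change was 0.57 (limma, adjusted p of 0.0430), among the 6 genes with an adjusted p below 0.05 in the fit as reported. The groups thus differ in Atf4 transcript, but a higher level does not show the frameshift, so transcript level does not check the genotype. Nothing in the labels shows that the libraries came from separate embryos beyond the statement of biological replicates.

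The levels of the 10 members spanned about 3 orders of magnitude, and their order was almost fixed across libraries. Averaged over the 8 libraries, Gpx4 stood at 373 TPM, Gsr at 35.1, Gclm at 17.7, Gclc at 14.8, Gss at 12.7, Chac2 at 5.67, Ggct at 3.25, Cth at 1.74, Chac1 at 0.486 and Cbs at 0.302 TPM. For 7 of the 9 neighbouring pairs, the lowest library of the upper gene was above the highest library of the lower gene. The exceptions were Gclc against Gss, and Chac1 against Cbs, where the upper gene was higher in 7 of 8 libraries. The embryonic ventricle thus held far more transcript for using and recycling glutathione than for making cysteine from methionine.

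**Figure D1:**
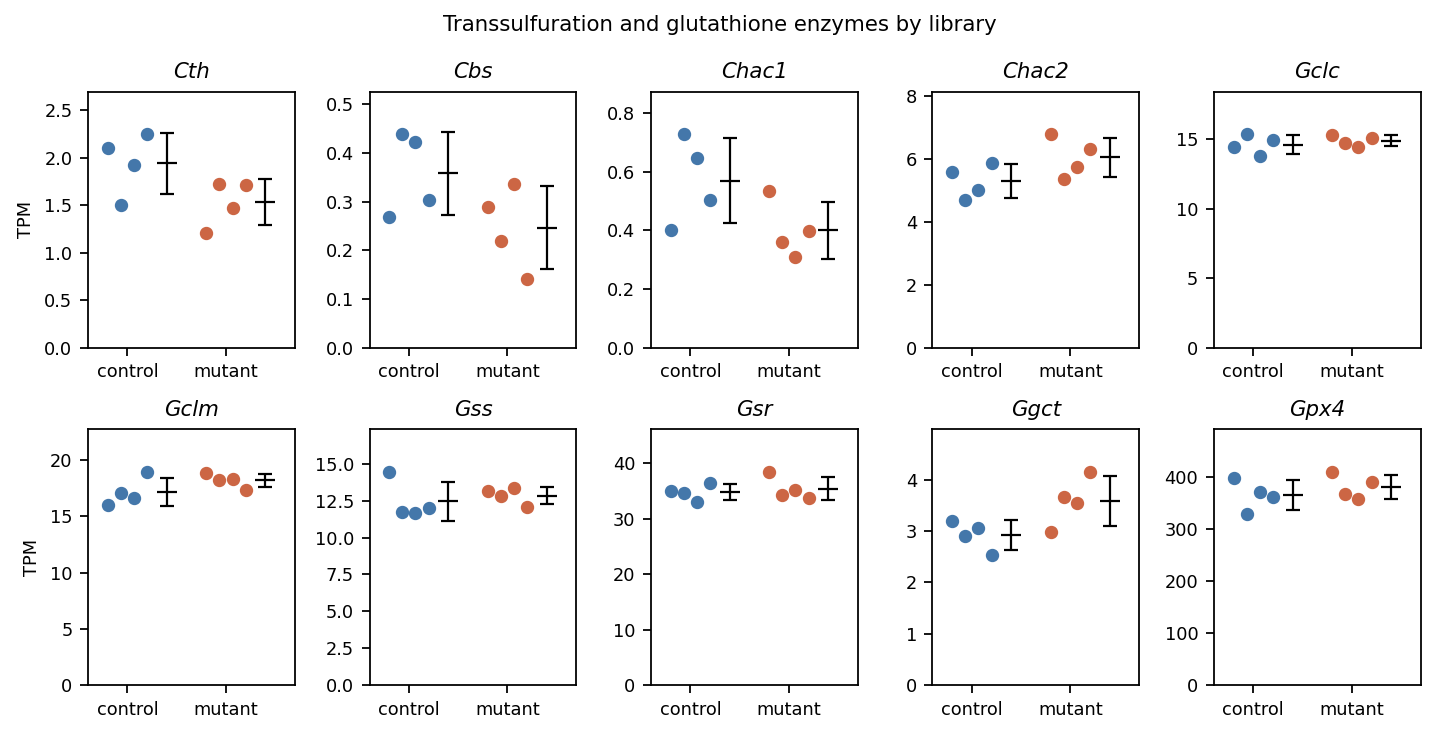
TPM of each of the 10 genes (vertical axis, from 0, with its own scale per gene) in the 4 control and 4 mutant libraries, with the mean and SD to the right of each group. The ranges of controls and mutants overlap for every gene, and only Cth, Cbs and Chac1 have a lower mean in the mutants.

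No member passed the test between genotypes. Of the 8 members that entered the test (at least 1 TPM in at least 4 libraries), 0 had an adjusted p below 0.05 in limma, and 0 had an unadjusted p below 0.05. The same thresholds were passed by 0.0386% and 6.1% of the 15545 genes tested. Control and mutant values overlapped for all 10 members, against 3.68% of tested genes without overlap. The log2 fold changes of TPM + 1 ran from -0.22 for Cth to 0.22 for Ggct, with a median of 0.054 beside -0.0033 over all genes tested. Above 0 were 7 of the 8, against 48.2% of tested genes. Cbs and Chac1, left out by the filter, were both below 0 in a fit without it, at -0.12 and -0.16. In simulated data with the spread of these libraries, the same fit recovered 32.3% of genes given a log2 change of 0.3. It recovered 68.7% at 0.5 and 92.5% at 1, but only 1.17% at 0.2, about the size of the largest member differences. Each simulated run changed 200 genes at once, which makes the adjusted threshold easier to pass than in the real data, where 6 genes passed. The rates average over all genes, and recovery of each member was not read out.

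Both transsulfuration genes were read far below the synthesis genes, and neither passed the threshold in any fit that included it. Cth (chromosome 3, bases 157894248 to 157925081, minus strand) held 2.10, 1.50, 1.92 and 2.25 TPM in control libraries 1 to 4 and 1.21, 1.73, 1.47 and 1.71 TPM in mutant libraries 1 to 4. Every mutant lay below the control median, as in 13.2% of tested genes, but control 2 lay among the mutants. The means were 1.94 ± 0.322 and 1.53 ± 0.243 TPM (SD, n = 4 each), a ratio of 0.787. The log2 fold change was -0.22 with a 95% interval from -0.48 to 0.050 (limma, adjusted p of 0.849). Without control 2 it was -0.29, and with a pseudocount of 0.1 in place of 1 it was -0.33, with no call in either fit (adjusted p of 0.933 and 0.858).

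Cbs (chromosome 17, bases 31612623 to 31637233, minus strand) held 0.269, 0.438, 0.423 and 0.302 TPM in the controls and 0.288, 0.220, 0.337 and 0.141 TPM in the mutants. No library reached 1 TPM, so the gene was outside the test. The ranges overlap between 0.269 and 0.337 TPM. The means were 0.358 ± 0.0852 and 0.246 ± 0.0851 TPM (SD, n = 4 each), and the fit without an expression filter gave a log2 fold change of -0.12 with an interval from -0.27 to 0.026 (adjusted p of 0.865). With a pseudocount of 0.1 the difference was -0.42, between -0.54 and -0.26 with any 1 library left out. Cbs and Cth are known for high expression in liver. Hepatocyte markers summed to between 2.78 and 4.88 TPM in the 8 libraries, with Apoa2 at 1.52 to 3.08 TPM and the other 9 under 1 TPM in every library. The part of liver cells in the Cth and Cbs values was not tested.

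Within a library, Cth exceeded Cbs by 3.43 to 7.82 times in the controls and 4.21 to 12.1 times in the mutants. The deviations of Cth and Cbs from their group means ran in opposite directions across the 8 libraries, with a Pearson r of -0.74. Those of Cth and Chac1 did so as well, at -0.75. These are descriptions over 8 libraries of transcripts near or under 2 TPM, where few reads lie behind each value.

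The 3 synthesis genes had log2 fold changes from 0.026 to 0.081. Gclc (chromosome 9, bases 77754535 to 77794489, plus strand), for the catalytic subunit of glutamate-cysteine ligase, held 14.4, 15.4, 13.8 and 15.0 TPM in the controls and 15.3, 14.8, 14.4 and 15.1 TPM in the mutants. Every mutant value fell within the control range. Its log2 fold change was 0.026, and the interval from -0.089 to 0.14 corresponds to a ratio of TPM + 1 between 0.940 and 1.10 (adjusted p of 0.970). This was the most even of the members from library to library, with a coefficient of variation of 3.64% over all 8.

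Gclm (chromosome 3, bases 122245487 to 122267215, plus strand), for the modifier subunit, held 16.0, 17.1, 16.7 and 19.0 TPM in the controls and 18.9, 18.3, 18.3 and 17.4 TPM in the mutants. All 4 mutants were above the control median, as in 11.8% of tested genes, while control 4 was the highest of all 8 libraries. Gclm thus had a log2 fold change of 0.081 with an interval from -0.051 to 0.21 (adjusted p of 0.896). It was 0.13 without control 4 and 0.049 without control 1, with no call in either fit (adjusted p of 0.742 and 0.954). The ratio of Gclc to Gclm was 0.854 ± 0.0558 in controls and 0.820 ± 0.0355 in mutants (SD, n = 4 each), a difference smaller than 1 SD of the controls.

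The Gclm value carries a limit from the annotation. Gm6061, listed as a pseudogene of 735 bases, lies inside Gclm on the same strand (chromosome 3, bases 122256690 to 122257424), and 282 of its bases fall on exons that GENCODE M21 assigns to Gclm transcripts. Gm6061 was read at 260, 234, 151 and 68.5 TPM in controls 1 to 4 and at 93.7, 146, 105 and 251 TPM in mutants 1 to 4. Gclm was high where Gm6061 was low. Across the 8 libraries Pearson's r was -0.84 on the log2 scale (exact permutation p of 0.0138, adjusted p of 0.0826 over 6 such pairs of member and overlapping feature). Spearman's rho was -0.905 (exact permutation p of 0.00456, adjusted p of 0.0274). These correlations were chosen after the values were seen, so their p-values are a description and not a test. Without controls 1 and 4, the libraries farthest from the median of Gm6061, r was -0.72. It was -0.90 within the controls and -0.96 within the mutants, over 4 libraries each. An r over 4 libraries varies widely. For Gsr with Gm17803, another of the 6 pairs, it was -0.96 within the controls and 0.77 within the mutants. How reads in the shared bases were counted is not given in the sources used here. GENCODE transcripts of Gclm also share sequence with Ppia, a far more abundant gene read at 1430 to 2160 TPM over the 8 libraries. The parts of Gm6061 and of Ppia in the Gclm values were not tested.

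Gss (chromosome 2, bases 155563181 to 155592810, minus strand), for glutathione synthetase, held 14.4, 11.7, 11.6 and 12.0 TPM in the controls and 13.2, 12.8, 13.3 and 12.1 TPM in the mutants. Control 1 was the highest of all libraries, and the other 3 controls were below every mutant. Its log2 fold change was 0.045 with an interval from -0.12 to 0.21 (adjusted p of 0.962). Without control 1 it was 0.11, without control 2 it was 0.020 and without control 3 it was 0.016, with no call in any of these fits (adjusted p of 0.854, 0.987 and 0.997). A long noncoding RNA on the opposite strand, Gssos2, overlaps Gss over 24933 bases and was read at 0.242 to 0.860 TPM.

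Gsr (chromosome 8, bases 33653238 to 33698162, plus strand) encodes glutathione reductase, which returns oxidised glutathione to its reduced form with NADPH. It held 34.9, 34.7, 33.0 and 36.5 TPM in the controls and 38.4, 34.3, 35.2 and 33.8 TPM in the mutants. The mutants lay on both sides of the control median, 2 above and 2 below. Its log2 fold change was 0.024 with an interval from -0.090 to 0.14 (adjusted p of 0.973), and it was -0.015 without mutant 1.

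Gpx4 (chromosome 10, bases 80047166 to 80056439, plus strand) encodes a selenoprotein that reduces lipid hydroperoxides in membranes with glutathione as the reductant and is known as the main guard against ferroptosis. It held 398, 328, 372 and 361 TPM in the controls and 409, 367, 357 and 389 TPM in the mutants. The means were 365 ± 28.7 and 381 ± 23.2 TPM (SD, n = 4 each). This is a log2 fold change of 0.064 with an interval from -0.076 to 0.20 (adjusted p of 0.929). Without control 2, the lowest library, it was 0.015.

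Gpx4 has a near-identical processed copy. Of the distinct 50-base words in its GENCODE transcripts, 34.7% also occur in Gpx4-ps2, a pseudogene on another part of chromosome 10 (bases 45875290 to 45876066). Gpx4-ps2 was listed at 86.2 to 91.5 TPM in the controls against 83.8 to 88.4 TPM in mutants, so reads of Gpx4 may have been split between both. With the rows of Gpx4, Gpx4-ps1 and Gpx4-ps2 summed, controls averaged 455 ± 29.7 and mutants 467 ± 24.2 TPM (SD, n = 4 each). Summed, the log2 difference was 0.038 and did not pass either (adjusted p of 0.955). No 50-base word of Cth, Chac1, Chac2, Gclc, Gss or Gsr occurs in a transcript of another gene. The shares for Cbs, Gclm and Ggct were 1.11%, 3.92% and 0.14%. Of the Gclm words, 3.24% occur in Ppia, and 3.07% each in Gm6061 and Gm10123.

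Of the 3 breakdown genes, Chac1 had a lower mean and Chac2 and Ggct a higher mean in the mutants, with none past the threshold. Chac1 (chromosome 2, bases 119351242 to 119354326, plus strand) encodes a cytosolic enzyme that cleaves glutathione and is induced by ATF4 and CHOP under stress. It held 0.400, 0.728, 0.648 and 0.504 TPM in the controls and 0.536, 0.359, 0.310 and 0.399 TPM in the mutants. Mutants 2, 3 and 4 were below every control, while mutant 1 lay within the control range. The means were 0.570 ± 0.146 and 0.401 ± 0.0972 TPM (SD, n = 4 each). All 8 libraries were under 1 TPM, so Chac1 was outside the test, and the fit without a filter gave a log2 fold change of -0.16 with an interval from -0.35 to 0.028 (adjusted p of 0.865). With a pseudocount of 0.1 the same difference was -0.41, between -0.54 and -0.30 with any 1 library left out.

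Chac2 (chromosome 11, bases 30976707 to 30986365, minus strand) encodes the paralog of Chac1, known as a slower, constitutive enzyme. It held 5.59, 4.68, 5.01 and 5.86 TPM in the controls and 6.77, 5.37, 5.74 and 6.31 TPM in the mutants. All mutants lay above the control median, and 2 of the 4 lay above every control. Its log2 fold change was 0.17 with an interval from -0.042 to 0.37 (adjusted p of 0.852). Chac2 was 6.43 to 14.0 times as abundant as Chac1 in the controls and 12.6 to 18.5 times in the mutants, ranges that overlap. The whole gene lies within Asb3 on the opposite strand, which was read at 7.14 to 8.85 TPM, so without stated strand handling their reads may not be separable.

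Ggct (chromosome 6, bases 54985095 to 54992960, minus strand) encodes gamma-glutamylcyclotransferase, which releases amino acids from gamma-glutamyl dipeptides as 5-oxoproline forms. It held 3.19, 2.90, 3.06 and 2.53 TPM in the controls and 2.97, 3.65, 3.55 and 4.15 TPM in the mutants. Mutants 2, 3 and 4 were above every control, and mutant 1 was within the control range. The means were 2.92 ± 0.284 and 3.58 ± 0.482 TPM (SD, n = 4 each), a ratio of 1.23. This gave a log2 fold change of 0.22 with an interval from -0.0086 to 0.45 (limma, unadjusted p of 0.0575 and adjusted p of 0.825). Without mutant 1 it was 0.29 (adjusted p of 0.719), the lowest adjusted p of any member in any fit.

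**Figure D2:**
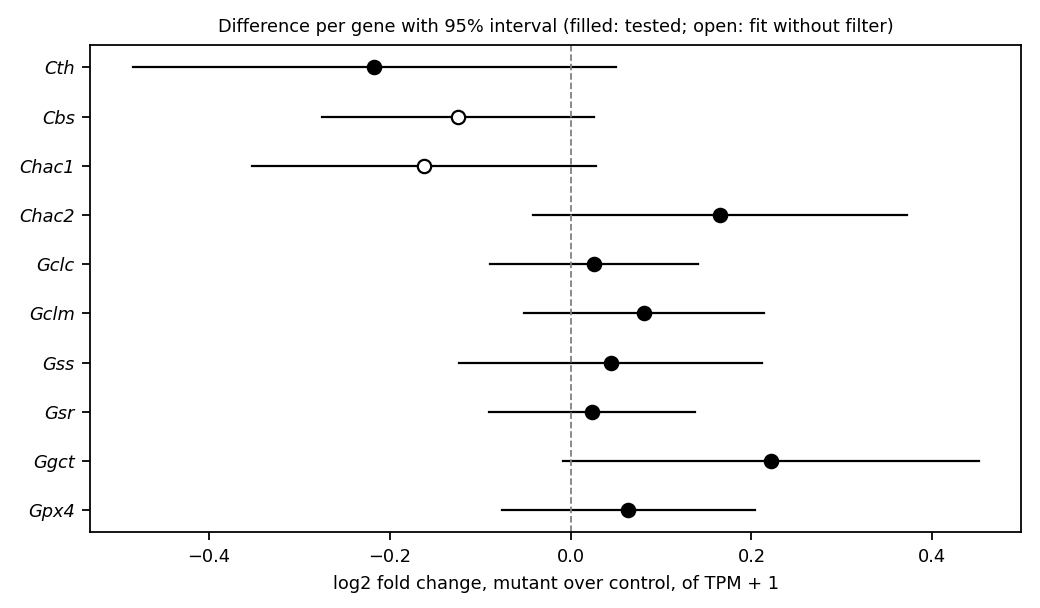
Log2 fold change of TPM + 1, mutant over control (horizontal axis), for each of the 10 genes, with 95% intervals from limma. Filled points are the 8 tested genes and open points are Cbs and Chac1, from the fit without an expression filter. Every interval includes 0, and that of Ggct reaches from -0.0086 to 0.45.

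The members did not vary together as a block. Over the 45 pairs, the correlation of deviations from the group mean had a median of 0.0042 and ran from -0.88 to 0.74 across the 8 libraries, with 23 pairs above 0. The highest was Chac2 with Gpx4, and the lowest was Gsr with Ggct. Gclc and Gclm, whose proteins form 1 enzyme, had an r of 0.37. The libraries share their normalization, and each r rests on 8 points.

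Genes of like pattern were sought for Cth and Chac1 among 11627 tested genes with a mean of at least 5 TPM. Closest to Cth over the 8 libraries were Zfp954, Gng11 and Atg14, with Pearson r of 0.97, 0.96 and 0.93. Closest to Chac1 were Mfsd1, Ptk2b and Coq8a, with r of 0.96, 0.96 and 0.95. None of the 6 passed the test between genotypes (adjusted p of at least 0.843). These r are the highest among 11627 candidates over 8 libraries and are a description only.

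Marker transcripts of other cell types were set beside these values. Macrophage markers summed to 10.9 to 22.4 TPM in the controls against 6.06 to 11.1 TPM in mutants, with all 9 lower in the mutant mean. Erythroid markers summed to 4688 to 7993 TPM in the controls against 4378 to 6093 TPM in mutants, with 9 of 10 lower. Endocardial and endothelial markers ran from 663 to 728 TPM in the controls and from 637 to 712 TPM in the mutants, and epicardial markers from 312 to 356 and from 311 to 342 TPM. Cth, Cbs and Chac1 also had lower means in the mutants, and the part of macrophages or blood cells in their values was not tested. In bulk tissue, fewer cells of a type cannot be told apart from less RNA per cell.

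The wider pathway was read from 11 lists of other genes, of which 124 entered the test. None passed the adjusted threshold (limma, a count of 0). At an unadjusted p below 0.05 there were 3 higher and 5 lower, against the 6.1% of all tested genes given above. Control and mutant values did not overlap for 3 of the 124, all lower in the mutants, against 3.68% of all tested genes in either direction. The median log2 fold change over the 124 was 0.015. For the genes named in each list, the rule took the 2 with the smallest p.

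**Figure D3:**
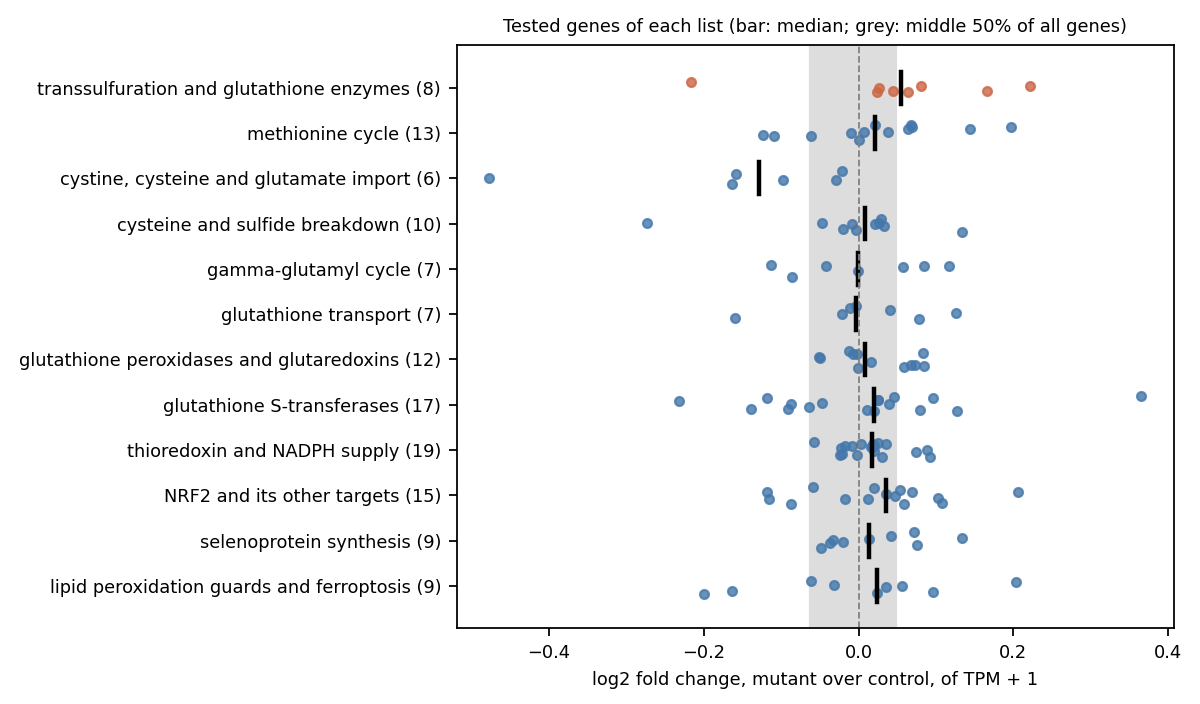
Log2 fold change of TPM + 1, mutant over control (horizontal axis), for each tested gene of the member set (top row) and of the 11 pathway lists, with the number tested in parentheses and a bar at each median. The grey band is the interquartile range of all tested genes, from -0.063 to 0.048. All 6 tested import genes lie below 0, as do 8055 of all 15545 tested genes.

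Genes for import of cystine, cysteine and glutamate had the lowest median of the lists, -0.13. All 6 tested genes of this list were below 0, as were 8055 of the 15545 genes tested. Slc1a4, for a carrier of serine, alanine and cysteine, held 6.51, 6.98, 6.58 and 7.71 TPM in the controls and 5.32, 4.37, 5.30 and 3.94 TPM in the mutants. The groups did not overlap, and the log2 difference of -0.48 was the lowest of the 124 (limma, unadjusted p of 0.00087 and adjusted p of 0.501). Slc7a8, for a carrier of neutral amino acids, had a value of -0.16 (adjusted p of 0.858). Slc7a11, the cystine carrier named above, was outside the test at 0.293 to 0.525 TPM in the controls against 0.298 to 0.500 TPM in mutants, and was named apart from the rule.

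In the methionine cycle, which feeds homocysteine to Cbs, 13 of 16 genes were tested, with a median of 0.021. Mat2a, for the catalytic subunit of the methionine adenosyltransferase that makes S-adenosylmethionine, held 160 to 172 TPM in the controls against 153 to 157 TPM in mutants. The ranges did not overlap, and its log2 difference was -0.11 (limma, unadjusted p of 0.0062 and adjusted p of 0.742). Adi1, of the methionine salvage pathway, stood at 0.14 (adjusted p of 0.841).

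Among 10 tested genes of cysteine and sulfide breakdown the median was 0.0087. Cdo1, for cysteine dioxygenase, which commits cysteine to oxidation, averaged 34.9 ± 1.22 TPM in controls and 33.8 ± 2.47 TPM in mutants (SD, n = 4 each). Tst, for a mitochondrial sulfurtransferase, stood at 0.13 (adjusted p of 0.928). Cdo1 was thus about as abundant as Gsr, and far above Cth and Cbs.

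In the gamma-glutamyl cycle 7 genes were tested, with a median of -0.0008. Lap3, for an aminopeptidase that can split cysteinylglycine, stood at 0.12 on the log2 scale (unadjusted p of 0.0386 and adjusted p of 0.809 in limma). Oplah, for the 5-oxoprolinase that turns the product of Chac1, Chac2 and Ggct back to glutamate, averaged 12.7 ± 0.226 TPM in controls and 11.7 ± 1.36 TPM in mutants (SD, n = 4 each). Of 7 tested glutathione transport genes, Abcc5, for an efflux pump, lay at 27.9 to 28.7 TPM in the controls against 22.7 to 27.5 TPM in mutants, without overlap, and its log2 difference was -0.16 (adjusted p of 0.802). Abcc1, for a pump that exports glutathione conjugates, stood at 0.13 (adjusted p of 0.902).

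The genes that use glutathione showed medians near 0. Among 12 peroxidases and glutaredoxins it was 0.0077, with Gpx3, for the secreted peroxidase, at 889 ± 34.0 and 942 ± 26.0 TPM (SD, n = 4 each). Gpx3 was therefore more abundant than Gpx4, and its log2 difference was 0.084 (limma, unadjusted p of 0.0484 and adjusted p of 0.818). Glo1, for the glyoxalase that consumes a glutathione adduct, stood at 0.067 (adjusted p of 0.841). Among 17 glutathione S-transferases the median was 0.020. Gstp2 had the highest log2 difference of the 124 genes, 0.37, at 25.4 to 33.5 TPM in the controls against 31.0 to 43.8 TPM in mutants (adjusted p of 0.764), but it shares much sequence with Gstp1 and its reads may be split. Mgst3, for a microsomal transferase, stood at -0.14 (adjusted p of 0.843).

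The remaining lists cover redox partners of the pathway. Among 19 thioredoxin and NADPH supply genes the median was 0.017, with Me1, for malic enzyme, at 0.088 and Txn1, for thioredoxin, at 0.092. Among 15 genes of NRF2 and its other targets it was 0.036, with Nfe2l2, which encodes NRF2, at 0.11 and Fth1, for ferritin heavy chain, at -0.088. Among 9 selenoprotein synthesis genes, on which Gpx4 depends, it was 0.014, with Sephs2, for selenophosphate synthetase, at 0.072 and Scly, for selenocysteine lyase, at 0.13. Among 9 lipid peroxidation genes it was 0.023, with Tfrc, for the transferrin receptor, at -0.16 and Alox5, for a lipoxygenase, at 0.20. The adjusted p of these 8 genes was at least 0.801 in limma, and only Fth1 and Tfrc had an unadjusted p below 0.05, at 0.0271 and 0.0260.

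The size of the members' differences under other settings was compared last.

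**Figure D4:**
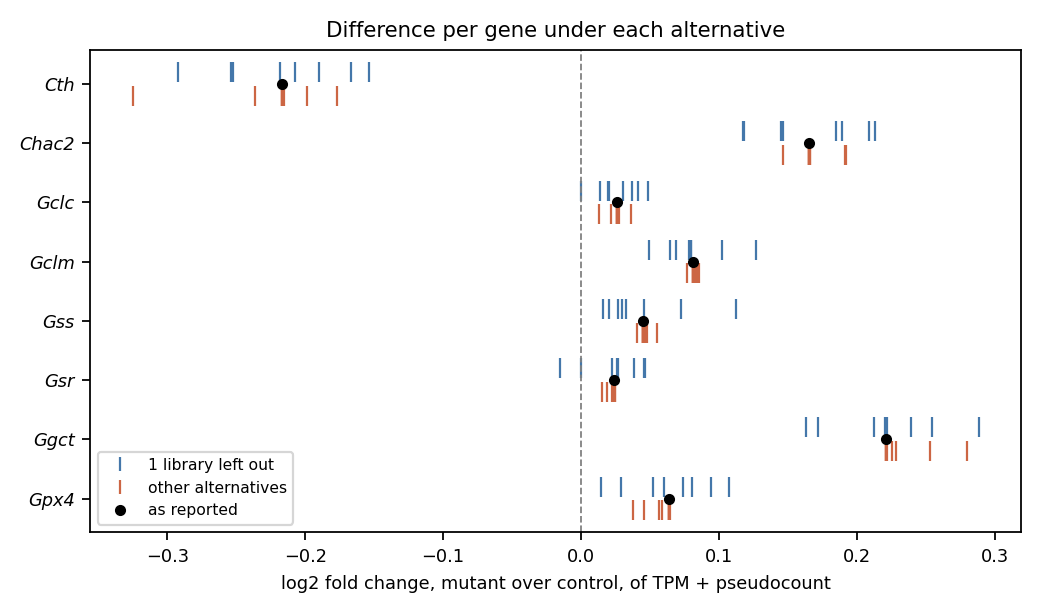
Log2 fold change, mutant over control (horizontal axis), of the 8 tested genes as reported (points), with each of the 8 libraries left out in turn (upper ticks) and under the other alternatives (lower ticks). Cth stays between -0.33 and -0.15 and Ggct between 0.16 and 0.29, while Gclc and Gsr each fall below 0 in 1 fit.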

How the data were processed

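TPM values for the 8 libraries were deposited by the authors as a single table. The submitters' processing notes name FastQC, Trim Galore 0.6.7, HISAT2 2.2.1, StringTie 2.2.1, featureCounts and DESeq2. They name the builds GRCm38 and mm10 and do not say what each tool did. Strand setting, annotation and treatment of multi-mapping reads are not given in the sources used here. The listed features sum to 923500 to 949800 TPM per library, and coordinates are those of the table.

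TPM + 1 was put on a log2 scale without further scaling. Genes that reached 1 TPM in 4 or more of the 8 libraries (15545) were compared in limma 3.58.1 (R 4.3.3) by a linear model with empirical Bayes variances that follow mean expression. Two-sided p-values were adjusted by Benjamini-Hochberg over all genes tested, at 0.05. Fold changes on this scale understate those of low genes. The p-values set the difference between the groups against the spread between these libraries. The fit was tested on simulated data. Correlations of members with overlapping features were computed in Python 3.11.15 with exact two-sided permutation. All other correlations were computed in R without a p-value.

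The members, lists and tests were chosen with earlier results of these data known. Named were all members, Atf4, overlapping features, in each list the genes past the threshold and the 2 with the smallest p, and the 3 genes most correlated with Cth and with Chac1. Other genes, and the overlap correlations, were chosen after values were seen. The alternatives were 17 planned settings and the Gpx4 sum, added later. Whether replicate numbers pair the libraries was checked from correlated deviations. No protein sequences were used here.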

Additional observations from a re-analysis of the deposited data

Results flagged for a closer look

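The 45 named genes, overlapping features included, gave 90 groups of 4 libraries. In 5 of these groups 1 library stood apart, its gap to the nearest of the others taking up nearly the whole range of the group, where chance gives about 4.5, or 1 in 20.

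Gss was high in control 1, where it held 14.4 TPM while the other controls held 11.6 to 12.0 TPM. Gssos2, which overlaps Gss on the opposite strand, was high in control 4, at 0.860 TPM against 0.310 to 0.346 TPM. Oplah was high in control 4, at 13.0 TPM against 12.6 TPM or slightly less in the others. Gng11 was low in control 2, at 39.2 TPM against 46.2 to 47.6 TPM, and Atg14 was low in the same library, at 6.83 TPM against 7.95 to 8.09 TPM. Gng11 and Atg14 were named for their likeness to Cth, whose lowest control was also control 2.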

How the results depend on the processing

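No member and no pathway gene passed the adjusted threshold in any of the 18 alternatives, a count of 0 for both in each. An unadjusted p below 0.05 was reached by Ggct in 4 of them, by Cth without control 2 and by Gclm without control 4. The count over all genes, 6 as reported, was 0 without an expression filter, 0 without a variance trend and 0 with the replicate number as a block, and 0 to 3 with 1 library left out. The replicate block moved no other call. Libraries with the same number did not deviate together (r of -0.038, 0.0351, -0.0369 and -0.0823). This gives no sign of pairing by number, but with 4 libraries per group it cannot exclude it. The sign of Gclc turned without control 3, at -0.00023, in a range up to 0.0484 with any 1 library left out, and that of Gsr without mutant 1, at -0.015, in a range up to 0.0466. The other 6 tested members kept their direction in every fit that included them. Cbs and Chac1 enter only the fit without a filter, and a filter at 5 TPM leaves out Cth and Ggct. TPM keeps no depth, so no counting error can be given for transcripts under 1 TPM.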
